A study of Mus musculus with 2 samples.

Results

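Immune marker-bearing nuclei of the day 1 fracture hematoma are the subject here. They are barcodes of a single-nucleus RNA-seq library that passed a wide quality filter and carried at least 2 UMIs (unique molecular identifiers, each counting 1 captured transcript) of 8 leukocyte genes, Ptprc, Dock2, Vav1, Adgre1, Csf3r, S100a8, S100a9 and Cd84, with this sum above that of 6 fibroblast and collagen genes. The filter required 200 to 5000 genes, under 5% mitochondrial and 2.5% ribosomal protein UMIs, under 8% UMIs of 6 muscle fibre genes and under 5% UMIs of the repeat-rich transcripts Gm10800 and Gm10801. It found 294 nuclei among 5414 barcodes that met the gene, mitochondrial and ribosomal limits, which was 5.43% (95% Clopper-Pearson interval 4.84 to 6.07), and among 48987 barcodes of the library. The members were thus selected on measured values, and the levels of the selecting genes are a description only.

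The library came from the periosteum and hematoma of wild-type C57BL6 mice (the study's methods name C57BL/6ScNj) at day 1 after an open, non-stabilized fracture of the tibia. The mice were 10 to 14 weeks old and of mixed sexes, and nuclei from 3 or 4 animals were pooled, stained with Sytox-AAD and sorted as stained particles with no immune gate. The other library of the series, at day 5 after a musculoskeletal traumatic injury (MTI, a fracture with crushed adjacent muscle), came from mice of the same strain. Each condition had 1 library, so no test between conditions was possible and no p-value is given. The intervals below are 95% intervals that cover counting error only.

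After a fracture, bleeding forms a hematoma into which neutrophils and then monocytes migrate, and monocytes mature into macrophages that clear debris and signal to the periosteum. CD45, encoded by Ptprc, marks all leukocytes. S100a8 and S100a9 encode the calprotectin subunits that neutrophils and monocytes hold in bulk, Csf3r encodes the G-CSF receptor of granulocytes, and Adgre1 encodes F4/80, a macrophage marker. Cytoplasmic RNA of such cells is largely lost when nuclei are prepared, and what is released can enter droplets as free RNA.

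The selection rested on few molecules. The 294 members held 157462 UMIs, with a median of 434.5 UMIs per nucleus (247 to 2271) over a median of 293 genes. Exactly 2 selecting UMIs were found in 222 members and 3 or more in 72, while 845 barcodes within the same quality, muscle and repeat limits held 1. In 53 members all selecting UMIs came from 1 gene, and in 241 they came from at least 2. Only 9 barcodes reached 2 immune UMIs without exceeding their fibroblast sum. Within 20 genes of the lower gene limit, 47 members lay inside it, and 64 barcodes that met every other limit lay outside.

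Dock2, a Rac activator of leukocyte migration, was the most abundant selecting gene, with 164 UMIs in 128 nuclei (1042 CPM, counts scaled to 1000000 UMIs). Cd84, a SLAM family receptor, had 112 UMIs in 89 nuclei, and Ptprc had 102 UMIs in 87 nuclei. S100a9 had 90 UMIs in 73 nuclei, Csf3r 84 in 71, Adgre1 56 in 52, Vav1 52 in 48 and S100a8 35 in 31. Even Dock2 was found in only 43.5% of the members, and 11 nuclei were selected by S100a8 and S100a9 alone.

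Free RNA carried the same markers. Over the 43464 barcodes with under 200 genes, taken here as free RNA with no muscle or repeat limit (6848386 UMIs, median 148), the 8 genes together reached 1083 CPM. Their level over all barcodes within the muscle and repeat limits did not increase with depth, from 1266 CPM at 50 to 99 genes to 1083 CPM in the first bin above 200 genes and 851 CPM at 600 genes or more. The share of barcodes that met the marker rule nevertheless went from 1.10% through 5.27% to 28.0% over the same bins. Depth moved with the selection, and its part in the number of members was not tested. The label of immune nuclei was therefore examined with genes that the rule did not use.

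**Figure D1:**
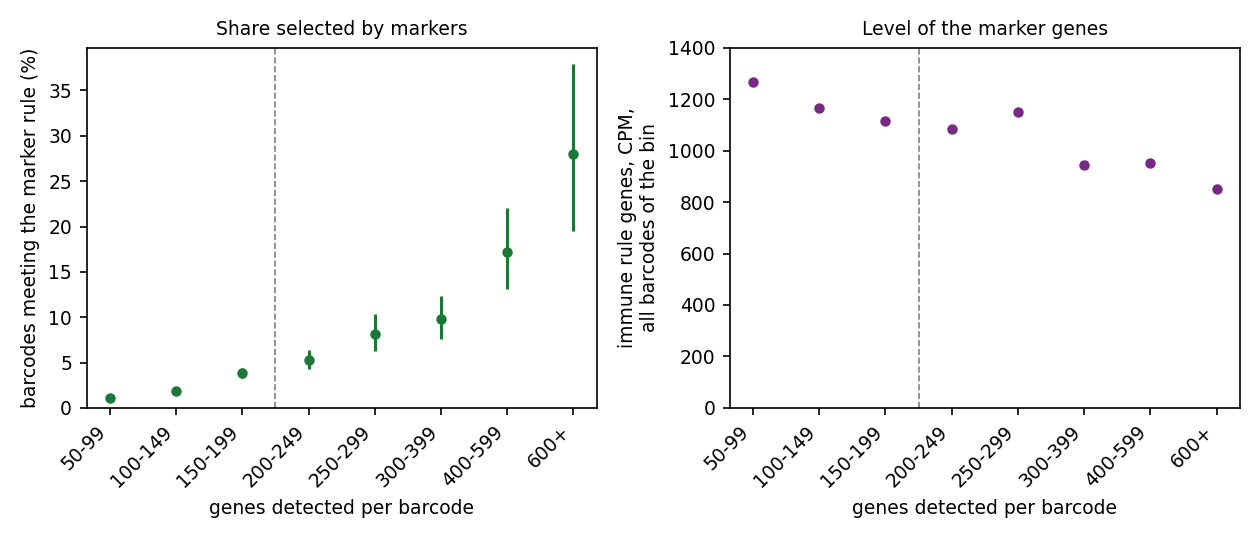
Share of barcodes meeting the marker rule (left, %, with 95% Clopper-Pearson intervals) and CPM of the 8 selecting genes over all barcodes of the bin (right), by genes detected per barcode in the day 1 library. The dashed line marks the limit of 200 genes. The share increases from 1.10% to 28.0% while the level of the genes goes from 1266 to 851 CPM.

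Levels in the members were set against 3 references of the same library: free RNA, 159 stromal nuclei chosen by the mirror rule (94540 UMIs, median 463), and 3066 barcodes that met the same limits with neither marker sum (1264330 UMIs, median 361). A gene was tested where the mean of both CPM values was at least 50, and a ratio of at least 2 or at most 0.5 was called. Against free RNA, 3412 genes were tested, of which 236 (6.92%) were at a ratio of 2 or more and 88 (2.58%) at 0.5 or less. The median ratio was 1.22, so a ratio near 1.22 is where the typical gene lay. Against neither-marker barcodes 120 of 3523 genes (3.41%) were at 2 or more and 51 (1.45%) at 0.5 or less, with a median of 1.08. The neither-marker and stromal references were selected for few immune UMIs, which free RNA was not.

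Genes of leukocyte signalling and cytoskeleton outside the rule were more abundant in the members than in any reference. Together the 25 genes had 764 UMIs and 4852 CPM, against 3074 CPM in free RNA, a ratio of 1.58 (1.47 to 1.70). Of the 22 tested, 5 were at 2 or more and 0 at 0.5 or less, with a median of 1.55. Prkcd, a protein kinase C, had 41 UMIs and a ratio of 2.41 (1.71 to 3.30). Spi1, which encodes the myeloid transcription factor PU.1, had 18 UMIs and a ratio of 2.38 (1.39 to 3.82). Cyth4, a leukocyte ARF exchange factor, had 26 UMIs and a ratio of 2.39. Dock10, a Cdc42 activator, was at 1.97 with 82 UMIs, and Runx1, a hematopoietic transcription factor, at 1.56 with 58. The stromal nuclei held 47 UMIs of Runx1 among 94540, against 157462 UMIs in the members, so its CPM was higher there. Cd44, the hyaluronan receptor and the most abundant gene of the list with 121 UMIs, was at 1.36, and the list ratio without it was 1.63. Ikzf1, a transcription factor of the lymphoid and myeloid lineages, had 9 UMIs and a ratio of 0.969 (0.440 to 1.86).

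Macrophage genes outside the rule were also higher than in free RNA. The 21 genes had 263 UMIs and 1670.2 CPM against 952 CPM in free RNA, a ratio of 1.75 (1.54 to 1.98), and 2 of 9 tested genes were at 2 or more. In the 76 members under 0.5% mitochondrial UMIs, the limit of the study's methods, the ratio was 1.17 (0.843 to 1.57). Ctss, a lysosomal cysteine protease, had 42 UMIs in 35 nuclei, at 267 CPM against 94.2, a ratio of 2.83 (2.02 to 3.87). Mrc1, the mannose receptor CD206, had 41 UMIs in 34 nuclei and a ratio of 2.61 (1.85 to 3.57). Msr1, a scavenger receptor, had 44 UMIs and a ratio of 2.00 (1.44 to 2.71), and Maf, a macrophage transcription factor, 35 UMIs and 1.62. Other defining markers had few UMIs, with 0 of Cd163, 1 of Cd68, 2 of C1qa and 3 of C1qb, a complement chain at a ratio of 5.22 (1.01 to 17.1). Since their levels in free RNA lay below the members' floor of 19.1 CPM, these counts show no lack. Lyz2 had 9 UMIs at a ratio of 1.11. In the monocyte list (189 UMIs, ratio 1.60, 1.38 to 1.85, and 1.27, 0.897 to 1.76, under 0.5%) F13a1, coagulation factor XIIIa, was at 1.93 with 59 UMIs and Vcan, the proteoglycan versican, at 1.68 with 91. Plac8 and Ms4a4c had 0 UMIs, and Ccr2, the receptor for the monocyte chemokine Ccl2, had 17 UMIs at a ratio of 1.38 (0.801 to 2.24).

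Neutrophil genes were near their level in free RNA. The 22 genes had 186 UMIs and 1181 CPM against 1069.6 CPM in free RNA, a ratio of 1.10 (0.95 to 1.28), an interval that holds both 1 and the median of all tested genes. Of 5 tested genes 0 were called, which is near the share over all tested genes. Slfn4, a Schlafen gene of myeloid cells, made up 113 of these UMIs, and without it the ratio was 0.940 (0.735 to 1.18). The other genes had few UMIs, from 12 of the lectin receptor Clec4d, 9 of Il1r2 and 5 of the gelatinase Mmp9 to 3 of Cxcr2 and 3 of Ifitm6 (8.70, 1.61 to 30.7) and 0 of Lcn2, Ly6g, Ngp, Retnlg and Wfdc21. The same floor of 19.1 CPM applies, and levels in free RNA were 11.8 CPM for Lcn2 and 0.438 CPM for Ly6g, so a lower level was not detectable at this depth. Against neither-marker barcodes the list was at 1.46 (1.24 to 1.71), and without Slfn4 at 1.18 (0.913 to 1.52). Without their most abundant genes, the leukocyte signalling, macrophage and monocyte lists were at 1.53, 1.57 and 1.61 over that reference. Since S100a8, S100a9 and Csf3r helped select the members, their own levels do not bear on this.

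Lymphoid and other blood lineages had few UMIs. The T and NK cell list had 65 UMIs at a ratio of 1.19 (0.913 to 1.52), with 0 UMIs of Cd3d, Cd3g and Gzma, and its leading gene was Prkcq with 24. B cell genes had 33 UMIs at 0.788 (0.541 to 1.11), with 0 of Cd79b. Ms4a1, the most abundant of them, had 10 UMIs at 0.563 (0.269 to 1.04). Ighm, the study's B cell marker, went the other way, with 6 UMIs in 6 nuclei at 3.95 (1.40 to 9.07). Over neither-marker barcodes Ighm was at 4.82 (1.44 to 14.6). The dendritic and MHC class II list had 39 UMIs at 1.47 (1.04 to 2.03), led by Ciita, the transactivator of class II genes, with 10, and without it the ratio was 1.29 (0.858 to 1.86). Cd209a, Clec9a, H2-Ab1, Siglech and Xcr1 of this list had 0 UMIs. The T and NK, B and dendritic genes named at 0 UMIs lay at 1.02 to 14.6 CPM in free RNA. That is below the members' floor of 19.1 CPM, so these counts show no lack. In the 76 members under 0.5% mitochondrial UMIs the dendritic and MHC class II list had 2 UMIs, at 51.6 CPM against 168 CPM in free RNA. Mast cell genes had 13 UMIs at 2.20 (1.16 to 3.83), of which Cpa3, mast cell carboxypeptidase, had 5. Of these, 4 were in 1 nucleus, and the list without Cpa3 was at 1.73 (0.737 to 3.48). Osteoclast genes had 7 UMIs, erythroid genes 9 and platelet genes 5, with ratios of 1.06, 0.993 and 1.25 and intervals that all included 1.

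**Figure D2:**
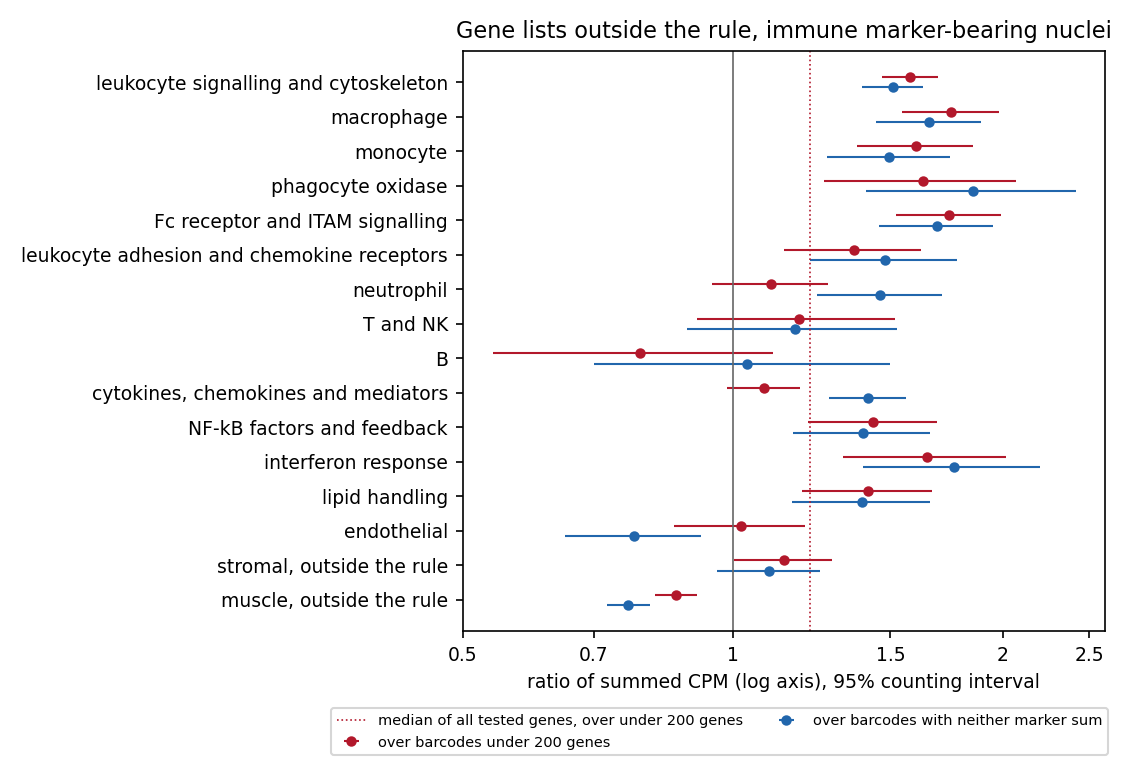
Ratio of summed CPM in the 294 members over barcodes with under 200 genes (red) and over barcodes with neither marker sum (blue), log axis, for 16 gene lists outside the rule, with bars for 95% counting intervals and a dotted line at the median ratio of 1.22. Macrophage genes lie at 1.75 over free RNA, neutrophil genes at 1.10 and muscle genes outside the rule at 0.865.

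Fc receptor and ITAM signalling genes had 225 UMIs and a ratio of 1.74 (1.52 to 1.99), with 2 of 8 tested at 2 or more. Plcg2, the phospholipase downstream of Syk, was at 2.60 with 24 UMIs, Fcgr2b, the inhibitory Fc receptor, at 2.05 with 18, and Syk itself at 1.84 with 28. In the phagocyte oxidase list (70 UMIs, ratio 1.63, 1.27 to 2.07) Cybb, the catalytic subunit, was at 2.06 with 13 UMIs. Adhesion molecules and chemokine receptors had 135 UMIs at 1.37 (1.14 to 1.62), with Itgam, the CD11b integrin chain, at 1.21 (0.888 to 1.62). In the 76 members under 0.5% mitochondrial UMIs that list was at 594 CPM against 628 CPM in free RNA.

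Secreted inflammatory genes were near their level in free RNA and above the other references, and in the 76 members under 0.5% mitochondrial UMIs they were below free RNA (0.749, 0.593 to 0.932). The 21 cytokines, chemokines and mediators had 471 UMIs and 2991 CPM against 2759.6 CPM in free RNA, a ratio of 1.08 (0.987 to 1.19), and 0 of 8 tested genes were called, which is near the share over all tested genes. Over neither-marker barcodes the list was at 1.42 (1.28 to 1.56) and over stromal nuclei at 1.58 (1.33 to 1.89). Non-immune lists were about as high over stromal nuclei, with muscle genes outside the rule at 1.49 and endothelial genes at 1.54. Over neither-marker barcodes those 2 lists were at 0.766 and 0.777. Spp1, osteopontin and the most abundant with 146 UMIs, was at 0.836 (0.705 to 0.985), and the list ratio without it was 1.25. Ccl2, the monocyte attractant, had 62 UMIs and a ratio of 1.56 (1.19 to 2.01), and Thbs1, thrombospondin 1, 95 UMIs and 1.57 (1.26 to 1.93). Il1b, the main inflammasome cytokine, had 11 UMIs and a ratio of 0.665 (0.331 to 1.20), and Tnf had 2 UMIs. NF-kB factors and feedback genes were at 1.44 (1.21 to 1.69) over free RNA, 1.40 (1.17 to 1.66) over neither-marker barcodes and 1.24 (0.933 to 1.67) over stromal nuclei. Over free RNA, Nfkbia, the NF-kB inhibitor and the most abundant of them, was at 1.03 on 37 UMIs, Rel, an NF-kB subunit, at 2.58 and Nlrp3, the inflammasome sensor, at 2.39 on 14 UMIs each.

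Interferon response genes had 96 UMIs and a ratio of 1.65 (1.33 to 2.02), with Stat2, a subunit of the ISGF3 factor, at 2.28 on 19 UMIs. Lipid handling genes were at 1.42 (1.20 to 1.67), with Plin2, a lipid droplet protein, at 1.98. In the 76 members under 0.5% mitochondrial UMIs they were at 568 CPM against 667 CPM in free RNA. Heme, iron and oxidative stress genes were at 1.33 (1.11 to 1.58), with Ftl1, the ferritin light chain, at 2.30 and Slc7a11, the cystine transporter, at 1.57 on 51 UMIs. Without Slc7a11 the list was at 1.22 (0.969 to 1.51), and Fth1, the ferritin heavy chain, was at 0.798 (0.410 to 1.40), Prdx1 at 0.646 (0.236 to 1.42) and Nqo1 at 0 UMIs. Under 0.5% mitochondrial UMIs the whole list was at 646 CPM against 649 CPM in free RNA. Glycolysis and hypoxia genes were at 1.31 (1.14 to 1.51), with Hk2, a hexokinase, at 1.55, and cell cycle genes had 34 UMIs at 1.13 (0.782 to 1.59).

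Macrophage subset markers that the study used included Mrc1 and Cd68, given above, and Taco1, a mitochondrial translational activator, which had 30 UMIs. Taco1 was at 2.19 (1.46 to 3.16) over free RNA, at 0.991 (0.655 to 1.45) over neither-marker barcodes and at 0.563 (0.330 to 0.956) over stromal nuclei. The study chose these markers on data that included this library, so they are not independent evidence. The 8 genes of its pro-repair secretome had 29 UMIs at 1.03 (0.690 to 1.49), and Igf1, Gas6 and Pdgfc, its anti-inflammatory genes, had 14 UMIs at 0.828 (0.451 to 1.40).

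RNA of non-immune cells was present throughout. The 6 muscle genes with a limit in the rule made up 2.53% of the members' UMIs, and 19 muscle genes outside it had 1414 UMIs, 8979.9 CPM and a ratio of 0.865 (0.820 to 0.912) to free RNA. Dmd, dystrophin, had 575 of them. Endothelial genes were at 1.02 (0.860 to 1.20), of which Cdh13, T-cadherin, gave 102 of 144 UMIs. Schwann cell genes had 27 UMIs, adipocyte genes 5 and pericyte and smooth muscle genes 13, at 1.14, 0.988 and 0.874 with intervals that included 1. The 16 stromal genes outside the rule were at 1.14 (1.00 to 1.29), but 146 of 256 UMIs came from Fn1, fibronectin, which was at 1.64 (1.38 to 1.93), and without it the ratio was 0.814 (0.668 to 0.983). Col5a2, a fibrillar collagen, was at 0.680 (0.439 to 1.01). Nuclear-retained RNA was at 1.86 over free RNA (1.82 to 1.89), with Malat1 at 10874 UMIs, at 0.951 (0.932 to 0.969) over neither-marker barcodes and at 1.29 (1.25 to 1.34) over stromal nuclei.

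The 15 genes with the highest lower bound over free RNA were of mixed kinds, and no enrichment was tested among them. Fam129b, a cytoplasmic phosphoprotein (ENSMUSG00000026796, chr2:32876114-32925254 in mm10), had 101 UMIs in 71 nuclei, 641 CPM against 188 in free RNA, a ratio of 3.41 (2.75 to 4.18). Tgfbi, a secreted matrix protein made by macrophages (chr13:56609523-56639562), had 156 UMIs in 94 nuclei, 991 CPM against 394, a ratio of 2.51 (2.12 to 2.95). In stromal nuclei Tgfbi was at 561 CPM. Ahnak, a large scaffold protein (chr19:8989284-9076914), had 290 UMIs in 145 nuclei, 1842 CPM against 861, a ratio of 2.14 (1.89 to 2.41). Tarm1, a myeloid immunoreceptor, was at 3.64 on 25 UMIs, Stab1, the scavenger receptor stabilin-1, at 2.86 on 43, and Mir142hg, the host of a hematopoietic microRNA, at 3.46 on 19. Ifi203, of the interferon-inducible p200 family, was at 3.43 on 19 UMIs, Nlrp1b, an inflammasome sensor, at 3.15 on 20, and App, the amyloid precursor protein, at 2.35 on 144. The translation factor Eif3a (2.70), the membrane protein Arl6ip5 (2.75) and the splicing factor Prpf38b (2.5) have no leukocyte-restricted role. Some ratios were smaller in the 76 members under 0.5% mitochondrial UMIs. There Fam129b was at 336 CPM (179 to 574) and Eif3a at 232 (106 to 441), against 188 and 184 CPM in free RNA. Tarm1 was at 25.8 CPM (0.654 to 144) on 1 UMI, against 43.7 CPM in free RNA. For Tgfb3 and 9930111J21Rik2 a single nucleus decided the value. Without the nucleus that held 8 of the 15 Tgfb3 UMIs the ratio went from 4.03 to 1.89 (0.748 to 3.98), and without the one that held 6 of the 14 UMIs of 9930111J21Rik2 from 3.67 to 2.11 (0.897 to 4.26).

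The 10 genes with the lowest upper bound over free RNA were also of mixed kinds. Myh2, a fast myosin heavy chain, had 15 UMIs, 95.3 CPM against 460 in free RNA (0.207, 0.116 to 0.342), and 6 of its UMIs were in 1 nucleus. Over neither-marker barcodes, which met the same muscle limit as the members, it was at 1.19 (0.644 to 2.06). Grik1, a glutamate receptor subunit with 234 UMIs, was at 0.412 (0.361 to 0.469), and the ribosomal RNA-like transcript AY036118 at 0.475 on 690 UMIs. Mir133a-1hg, which hosts a muscle microRNA, was at 0.262 on 9 UMIs and at 0.939 (0.414 to 1.88) over neither-marker barcodes. Over free RNA, Kctd16 was at 0.370 on 41 and Gm12216 at 0.381 on 55. Zfp949, Zfp994, Gm29325 and Atp1b1, a sodium pump subunit, had 2 to 8 UMIs each. Over neither-marker barcodes Grik1 was at 0.75 (0.653 to 0.858), AY036118 at 0.916 (0.846 to 0.992) and Kctd16 at 0.632 (0.448 to 0.869). The genes called at 2 or more were shorter than those tested, with a median genomic length of 47.1 kb against 90.7 kb, and those at 0.5 or less had a median of 108 kb. Length thus moved with the ratio to free RNA, and its part in these ratios was not tested.

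**Figure D3:**
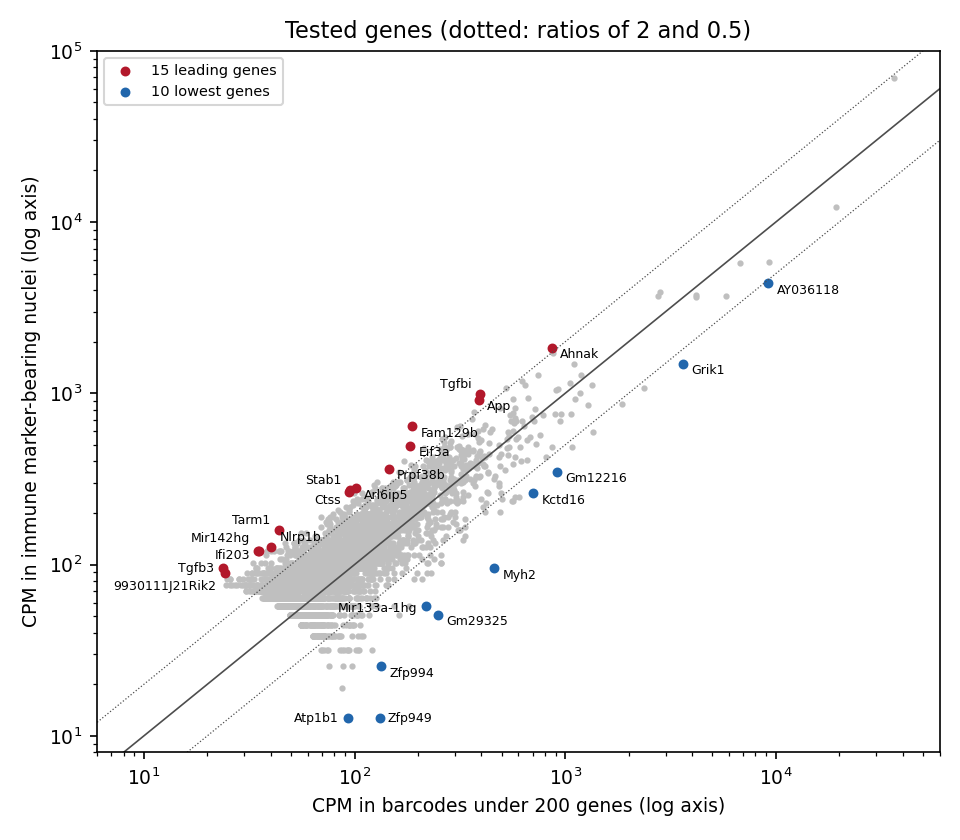
CPM of each tested gene in the 294 members against barcodes with under 200 genes, both on log axes, with the 15 leading genes in red and the 10 lowest in blue. The solid line is equality and the dotted lines are ratios of 2 and 0.5; Fam129b lies at 641 against 188 CPM and Grik1 at 1486 against 3608 CPM.

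The stromal nuclei had a similar depth per nucleus but far fewer UMIs in all than free RNA, so more genes pass a ratio by counting error alone, and they were chosen for few immune UMIs. Of 3710 genes tested, 413 (11.1%) were at 2 or more and 478 (12.9%) at 0.5 or less, with a median of 0.976. The macrophage list was at 2.51 (1.90 to 3.35) with 4 of 7 tested genes at 2 or more. The leukocyte signalling list was at 1.80 (1.56 to 2.08) with 12 of 20, and the neutrophil list at 2.19 (1.60 to 3.05) with 1 of 2. Muscle genes outside the rule were also above 1, at 1.49 (1.35 to 1.64), as were endothelial genes at 1.54 (1.13 to 2.14). Msr1 had 44 UMIs in the members and 3 in the stromal nuclei, a ratio of 8.81 (2.82 to 44.3). Stab1 had 43 and 4 UMIs (6.45), Cyth4 26 and 2 (7.81), Rreb1, a zinc finger transcription factor, 85 and 13 (3.93), and Adap2, an ARF GTPase activator, 21 and 1 (12.6, 2.03 to 521). Apbb1ip, the integrin activator RIAM, had 43 and 6 UMIs (4.30), and the myeloid inhibitory receptors Cd300lf and Lilr4b had 40 and 5 (4.80) and 52 and 8 (3.90). Mdm2, the p53 ligase, had 37 and 4 (5.55). Mir142hg had 19 UMIs against 0, so it was at least 3.80-fold higher at a floor of 3 counts over the stromal group, while the lower interval bound of the ratio was 2.80. On the other side, stromal genes outside the rule without Fn1 were at 0.167 (0.134 to 0.207), Igf1, Gas6 and Pdgfc together at 0.280 (0.137 to 0.545), and cell cycle genes at 0.425 (0.266 to 0.674). The monocyte list was at 1.19 (0.929 to 1.54). In it Vcan, which fibroblasts also express, was at 0.781, and without Vcan the list was at 2.35.

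Promoters are shown for 3 of these leading genes that share a short motif. The motif GAGGAAGT (its complement ACTTCCTC on the other strand), the core letters that PU.1 and other ETS factors bind, was searched in RefSeq promoters of GRCm38.p6, from 250 bases before to 50 after each start. It was chosen from 5 motifs after matches had been seen. Of 23 leading genes 18 had a promoter entry, and 5 of these held the motif (Ctss, Nlrp1b, Cyth4, Cd300lf and Apbb1ip), against 1052 of 32851 promoters (3.20%) and 121 of the 3150 tested genes with an entry (3.84%). A match is a description and not a bound site. Ctss is at chr3:95526536-95526835, Cyth4 at chr15:78596797-78597096 and Apbb1ip at chr2:22774077-22774376, all on the plus strand, and capitals mark the motif.
Ctss: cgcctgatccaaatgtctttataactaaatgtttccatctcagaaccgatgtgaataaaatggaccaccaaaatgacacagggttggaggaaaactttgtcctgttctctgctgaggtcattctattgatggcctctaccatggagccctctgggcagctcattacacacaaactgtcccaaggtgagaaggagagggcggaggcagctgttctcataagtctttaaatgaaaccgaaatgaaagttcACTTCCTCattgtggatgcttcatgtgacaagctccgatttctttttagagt
Cyth4: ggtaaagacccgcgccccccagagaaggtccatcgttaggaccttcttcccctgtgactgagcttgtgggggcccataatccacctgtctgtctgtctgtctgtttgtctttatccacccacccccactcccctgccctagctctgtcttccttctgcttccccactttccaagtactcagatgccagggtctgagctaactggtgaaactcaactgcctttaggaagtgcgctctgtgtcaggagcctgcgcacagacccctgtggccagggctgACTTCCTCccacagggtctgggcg
Apbb1ip: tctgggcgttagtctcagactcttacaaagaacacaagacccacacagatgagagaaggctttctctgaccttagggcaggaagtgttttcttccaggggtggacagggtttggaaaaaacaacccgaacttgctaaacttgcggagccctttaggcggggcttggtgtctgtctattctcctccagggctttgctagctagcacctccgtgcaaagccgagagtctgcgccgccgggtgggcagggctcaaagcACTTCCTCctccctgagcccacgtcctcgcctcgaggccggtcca

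The members were graded by the number of selecting UMIs, with lists outside the rule as readout. Leukocyte signalling genes were at 2993 CPM (2883 to 3108) in 2252 barcodes with 0 selecting UMIs and under 2 fibroblast UMIs, 3898 (3674 to 4132) in 690 with 1 and no fibroblast UMI, 4420 (4037 to 4828) in the 222 members with 2, and 5888 (5210 to 6629) in the 72 members with 3 or more. The macrophage list went from 969 CPM through 1148 and 1467 to 2157 (1755 to 2623), and the monocyte list from 747 through 958 and 1107 to 1423. The neutrophil list was at 771, 931, 999 and 1618 CPM (1272 to 2028), so it exceeded the free RNA level of 1069.6 CPM beyond its interval only in members with 3 or more. Cytokine genes were at 1982, 2468, 2619 and 3882 CPM. Muscle genes outside the rule were lower at each step, from 12095 CPM through 10933 and 9478 to 7786. Barcodes with 1 selecting UMI thus lay between those with 0 and the members in the leukocyte signalling list, with intervals that did not overlap those with 0.

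**Figure D4:**
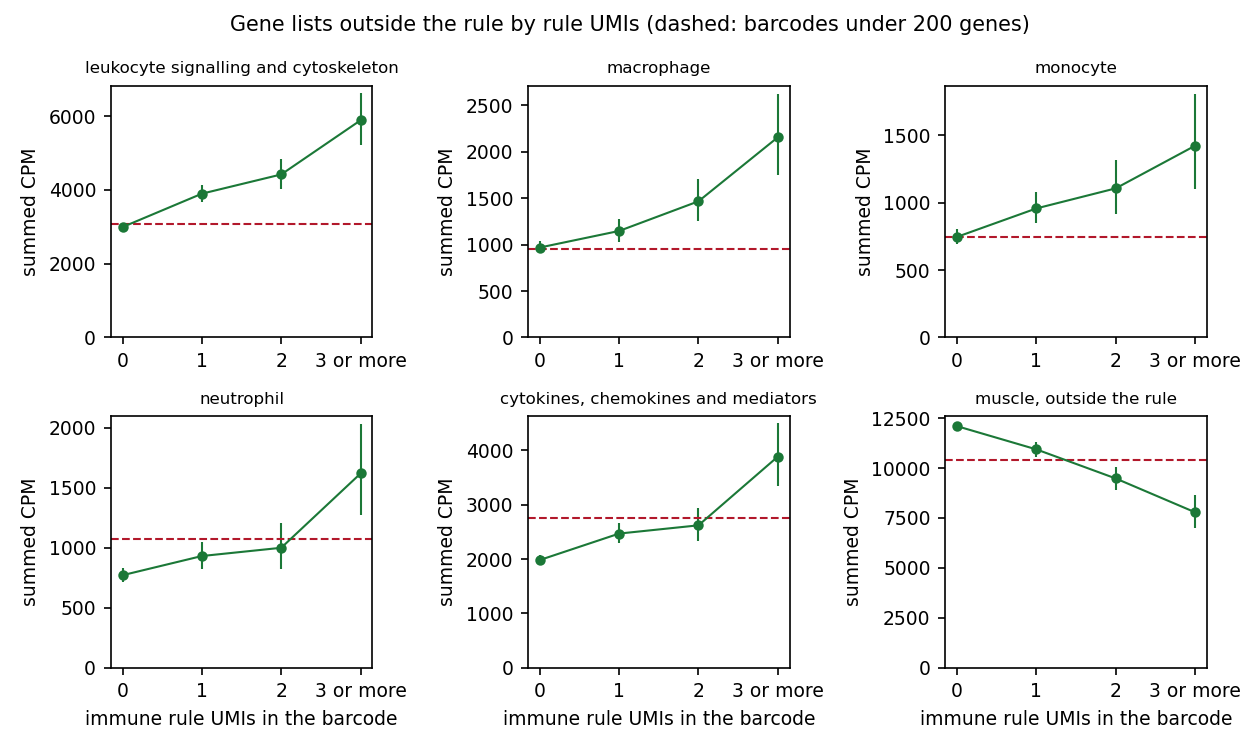
Summed CPM of 6 gene lists outside the rule (each panel from 0) in barcodes with 0 or 1 selecting UMIs, which are not members, and in members with 2 and with 3 or more, with 95% Poisson intervals and a dashed line for barcodes under 200 genes. Leukocyte signalling genes go from 2993 to 5888 CPM and muscle genes from 12095 to 7786 CPM.

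To compare shares of nuclei at equal depth, each barcode was thinned to 250 UMIs, which left out 1 member. At least 1 UMI of the leukocyte signalling list was then found in 67.2% of members (61.5 to 72.6; 86.4% unthinned), against 50.9% of stromal nuclei, 52.6% of neither-marker barcodes and 36.7% (33.1 to 40.5) of 681 barcodes with 8% or more muscle UMIs. Muscle fibre nuclei lack most of these genes, but not broadly expressed ones such as Cd44. Median depths were 434.5, 463, 361 and 456 UMIs in these groups. The macrophage list was found in 34.8% of members (29.4 to 40.6), 21.4% of neither-marker barcodes and 17.0% of muscle barcodes (14.3 to 20.1). For the neutrophil list the shares were 23.5% of members (18.8 to 28.8), 18.4% of neither-marker barcodes, 13.8% of stromal nuclei and 10.1% of muscle barcodes. For the monocyte list they were 22.5% (17.9 to 27.7), 17.6%, 21.4% and 8.66%. Tgfbi was found in 18.8% of members (14.5 to 23.7), 10.4% of neither-marker barcodes and 6.90% of muscle barcodes, and Mrc1 in 8.19% (5.32 to 11.9), 3.00% and 1.03%. T and NK cell genes were found in 10.6% (7.30 to 14.7) of members, 8.26% of neither-marker barcodes and 8.08% of muscle barcodes, and B cell genes in 5.46% (3.15 to 8.72), 5.13% and 2.94%. The intervals of both lists in the members held the shares in neither-marker barcodes, and Prkcq, which leads the T and NK list, is also expressed in muscle.

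The study's own mitochondrial limit of 0.5% would keep 76 of the 294 members (38724 UMIs, median 428), and the wider one adds 218 (118738 UMIs, median 439.5). The selecting genes were at 4597 CPM in the first and 4354 CPM in the second group. Several immune lists outside the rule were lower in the nuclei under 0.5%, and others were not. Macrophage genes were at 1110 CPM (43 UMIs) against 1853 (220 UMIs), a ratio of 0.599 (0.422 to 0.834), leukocyte signalling genes at 0.793 (0.661 to 0.947), cytokine genes at 0.627 (0.487 to 0.80) and lipid handling genes at 0.531 (0.322 to 0.840). The dendritic and MHC class II list, with 2 and 37 UMIs, was at 0.166 (0.0194 to 0.643). Adhesion molecules and chemokine receptors were at 0.630 (0.384 to 0.993). The neutrophil list was at 1.13 (0.798 to 1.57), phagocyte oxidase genes at 0.984 (0.534 to 1.73) and Fc receptor genes at 0.968 (0.699 to 1.32). Among the named genes, those with intervals below 1 were Tgfbi (23 and 133 UMIs, ratio 0.530), Thbs1 (12 and 83, 0.443), Fam129b (13 and 88, 0.453), Tarm1 (1 and 24, 0.128), Abca1, the cholesterol exporter (2 and 34, 0.180), Nfkbia (3 and 34, 0.271), Vcan (14 and 77, 0.558), Ahnak (47 and 243, 0.593) and Eif3a (9 and 69, 0.40). The selecting gene Vav1 went the other way (20 and 32, 1.92, 1.04 to 3.46). Muscle genes outside the rule were at 1.36 (1.21 to 1.53) and Malat1 at 1.17 (1.12 to 1.22) in the nuclei under 0.5%. Muscle RNA and nuclear-retained RNA thus moved with the mitochondrial share, and their part in these ratios was not tested.

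**Figure D5:**
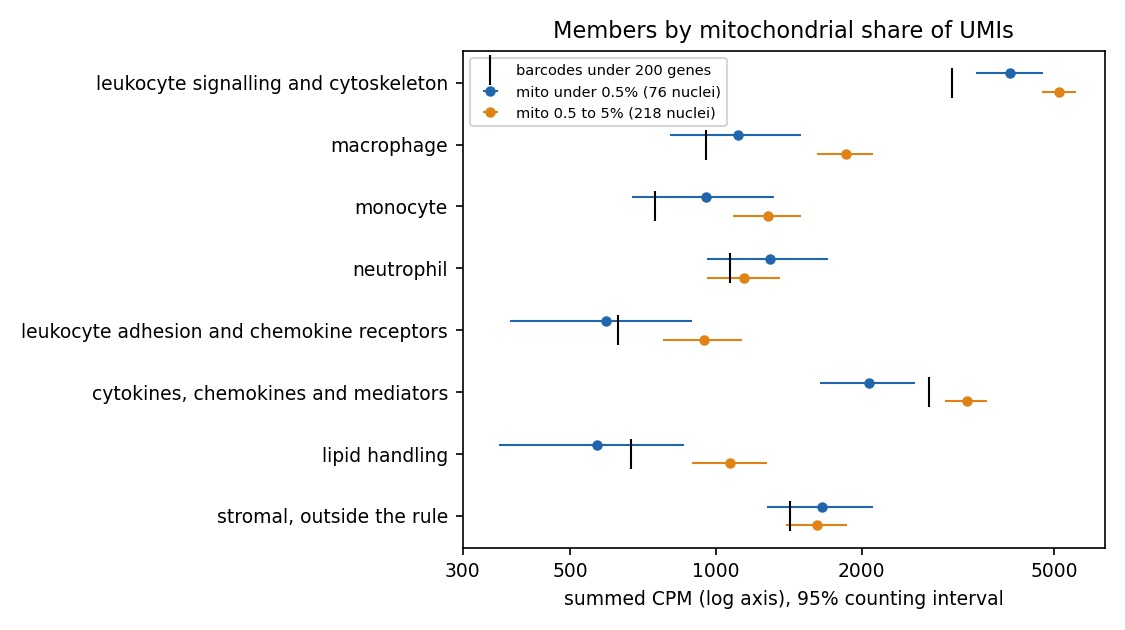
Summed CPM (log axis) of 8 gene lists outside the rule in the 76 members under 0.5% mitochondrial UMIs (blue) and the 218 at 0.5 to 5% (orange), with 95% Poisson intervals and black ticks for barcodes under 200 genes. Macrophage genes are at 1110 and 1853 CPM and neutrophil genes at 1291 and 1145 CPM.

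By the selecting genes they carried, 131 members had S100a8, S100a9 or Csf3r without Adgre1 (granulocyte-side, 71281 UMIs), 34 had Adgre1 without these, 18 had both and 111 had neither. These are ranges of UMIs and not cell types. Il1r2, the decoy receptor for interleukin 1 that neutrophils express, had 9 UMIs in 9 granulocyte-side nuclei and 0 in the other members. It was thus at least 3.63-fold higher at a floor of 3 counts over the others, with a lower interval bound of 2.39. The other leading genes of this class were of mixed kinds. They were 9930111J21Rik2 (13 UMIs against 1), Rnf220 (14 and 2), Tmem267 (16 and 3), Gm49171 (13 and 2) and Ddr2 (10 and 1). Yet the neutrophil list as a whole was at 1249 CPM in granulocyte-side nuclei and 1126 CPM in the other members, a ratio of 1.11 (0.823 to 1.49), and the macrophage list at 1.01 (0.789 to 1.30). Monocyte genes were at 0.679 (0.497 to 0.922) in granulocyte-side nuclei, and muscle genes outside the rule at 1.37 (1.24 to 1.53). In the 34 nuclei with Adgre1 alone, leukocyte signalling genes were at 1.36 (1.12 to 1.66) of the other members and Fermt3, the integrin activator kindlin-3, had 6 UMIs against 1, while the macrophage list was at 0.780 (0.499 to 1.17). The other leading genes of the Adgre1 nuclei, Hist1h1d (4 UMIs), Dram2, Fam91a1, Gm48159 and Lamb3 (3 each), had 0 UMIs in the other members. In the 111 nuclei with neither set, Hk3, a myeloid hexokinase, had 8 UMIs against 1. Ankrd52 had 6 against 0 there, Rfx3 9 and 2, Kpna4 19 and 9, and Cntln and Rinl 7 and 1 each. These genes are the extremes of all tested genes, on few UMIs, and no enrichment was tested among them.

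The same rule was applied to the MTI library at day 5, and the values are set side by side only, since day and injury differ together. It found 607 members among 1131 retained barcodes, with a median of 2805 UMIs and of 14 selecting UMIs, against 2 at day 1, and 95.9% had 3 or more. Leukocyte signalling genes were at 13760.2 CPM there and 4852 CPM at day 1, macrophage genes at 5364 and 1670.2, neutrophil genes at 806 and 1181, cytokine genes at 1286 and 2991, and muscle genes outside the rule at 1651 and 8979.9. The libraries shared 33 barcode sequences, and 0 of these were members at day 1.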

How the data were processed

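The authors deposited 10x Genomics counts: whole UMI counts per gene and barcode, made with Cell Ranger 7.0.1 on mm10 with intronic reads. The labels' protocol names a human reference, but all 32285 features are mouse genes. No normalization had been applied. Barcodes were summed by group and expressed as CPM of all UMIs. CPM intervals are exact Poisson, shares Clopper-Pearson and ratios exact conditional binomial, all at 95%. Genes of the rule, 13 mitochondrial and 101 ribosomal protein genes were not tested. Gene positions and lengths came from GENCODE M21. No doublet caller was run. The day 1 library had 9389014 UMIs in 48987 barcodes.

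Named genes were the 15 highest by lower bound and 10 lowest by upper bound against free RNA, the 10 highest against stromal nuclei, up to 6 per class of selecting genes, and up to 4 of each of 31 lists by UMIs; further list members and genes in the mitochondrial split were named after their values were seen. Of the listed genes, 2 were not read: Mx1 had no feature and Aldoa several. Some members of the lists are not reported here. Members and lists were chosen with earlier results of these data known. Alternatives changed each limit of the rule, the definition of free RNA, the totals and the filter on low values. Intervals came from scipy 1.17.1 under Python 3.11.15, with tables in pandas 2.3.3, and the script was tested on simulated data. The simulated counts were independent Poisson draws, as the intervals assume, so UMIs clumped in single nuclei were not covered.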

Additional observations from a re-analysis of the deposited data

How the results depend on the processing

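Of 119 recomputed values, 83 kept within the spread allowed for them (counting interval, or 1.5 times for a count) and 36 moved. Causes were not tested unless given. The ribosomal limit left 5414 of 5415 barcodes, so its removal could hardly move a value, and its unchanged values are among those kept. No paired analysis was possible because each condition had 1 library. Counts below are members and genes at a ratio of 2 or more to free RNA, 294 and 236 (of 3412 tested) as reported, and the values are list ratios. The number of genes tested under each setting is not given, so the gene counts are not shares. With fewer UMIs more genes pass a ratio by counting error alone, so a larger count does not by itself show a larger enrichment.

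With the mitochondrial limit at 0.5% there were 76 members and 744 genes, with leukocyte signalling at 1.32, macrophage at 1.17, monocyte at 1.27 and cytokine genes at 0.749, against neutrophil genes at 1.21. At 3 or more selecting UMIs there were 72 members and 841 genes, and the lists were at 1.92 (leukocyte signalling), 2.26 (macrophage), 1.90 (monocyte), 1.51 (neutrophil), 1.41 (cytokines) and 1.48 (stromal). A minimum of 300 genes gave 142 members, 406 genes and cytokines at 1.22. Muscle under 4% gave 411 genes, with leukocyte signalling at 1.74, neutrophil at 1.33 and cytokines at 1.22, and no muscle limit gave leukocyte signalling at 1.44. No repeat limit gave 116 genes, with leukocyte signalling at 1.42, macrophage at 1.44 and cytokines at 0.961. Without S100a8 and S100a9 in the rule there were 213 members and 360 genes. With free RNA as barcodes under 100 genes there were 426 genes and leukocyte signalling was at 1.78. A mean CPM of at least 20 gave 792 genes, at least 100 gave 80, and no filter gave 3615. Unthinned, 86.4% of members held a UMI of the leukocyte signalling list. Without its most abundant gene, an alternative chosen after seeing the data, the neutrophil list was at 0.940, cytokines at 1.25 and stromal genes at 0.814.

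Depth limits what these nuclei can show. At a median of 434.5 UMIs, the floor of 3 counts over all members was 19.1 CPM, and most selections rest on 2 molecules. The exact interval for 0 UMIs reached above that floor. Ms4a4c, with 0 UMIs, had an upper ratio of 1.02 to a free RNA level of 23.2 CPM. At the 0.5% mitochondrial limit the intervals of the macrophage (0.843 to 1.57) and monocyte (0.897 to 1.76) ratios included 1, and that of leukocyte signalling (1.12 to 1.54) did not.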
